A study of Mus musculus with 4 samples.

Results

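The comparison described here set N2a cells that received dexamethasone (Dex) for 4 h against N2a cells that received vehicle, both carrying a control siRNA, so that the coactivator gene Arglu1 was not targeted. It rests on the 2 of the 4 RNA-seq libraries whose labels name the control siRNA. N2a (Neuro-2a) is a mouse neuroblastoma line, a tumour relative of sympathetic neurons. In the siControl Veh group the cells were transfected with a non-targeting siRNA for 48 h and then given ethanol vehicle for 4 h. The siControl Dex group differed only in receiving 100 nM Dex in place of vehicle. The siArglu1 Veh and siArglu1 Dex groups, used below only for side-by-side values, received siRNA against Arglu1 with the same vehicle or Dex. RNA from 3 cultures was pooled in each group, so each group is 1 library of 1 cell line and no group has a replicate. No difference below therefore has a replicate check. The 95% intervals given after each ratio are exact binomial intervals on read counts, they cover counting error only, and no p-value is given. Because the RNA came from whole cultures, a lower share of cells that make a transcript and less transcript per cell cannot be told apart.

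Dex is a synthetic glucocorticoid that binds the glucocorticoid receptor (GR, encoded by Nr3c1). Ligand releases GR from chaperones in the cytoplasm, and the receptor enters the nucleus, binds paired inverted hexamers in DNA called glucocorticoid response elements, and recruits coactivators. It can also lower transcription, which is best known at inflammatory genes. Cells of the sympathoadrenal lineage make catecholamines, and in the adrenal medulla glucocorticoids are known to maintain the enzyme that makes adrenaline.

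The deposited tables hold 22667 genes, of which 12497 had at least 75 reads over the 4 libraries and were tested. Between 66074574 and 86541444 reads fell on genes in each library, and the TMM scaling factors lay between 0.984 and 1.01. Arglu1, the targeted gene, had 153 CPM with vehicle and 166 CPM with Dex in siControl, against 40.2 and 37.3 CPM in siArglu1. Nr3c1 itself was little changed by Dex, with 2904 reads with vehicle and 2890 with Dex and a log2 ratio of -0.11 (interval -0.18 to -0.03), and Nr3c2, the mineralocorticoid receptor that Dex can also bind, had 1 read and 4 reads. Markers of the neuroblastoma line were abundant, with a level summed over the 14 listed genes of 2.75e+03 CPM (read counts scaled to a common library size) in siControl Veh and 2.81e+03 in siControl Dex, with Chga higher and Gata3 lower among the 12 tested, whereas the 9 immune markers in the table summed to 0.721 and 0.785 CPM, with 4 of them at 0 in siControl Veh. The 10 fibroblast and smooth muscle markers summed to 990 reads and 905 reads, the 10 glial and endothelial markers to 703 and 677, and the 10 epithelial and liver markers to 165 and 161. Those of the 4 other-tissue lists with enough reads to be tested numbered 7, 3, 2 and, among the immune markers, 1, and none passed the rules below.

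A pair of thresholds on the log2 ratio of siControl Dex over siControl Veh were used. The size rule asks for a ratio of at least 1, a 2-fold difference, and the interval rule asks that the whole 95% counting interval lie beyond 0.3. By size, 40 genes were higher after Dex (0.32% of the genes tested) and 18 were lower (0.144%). By interval, 95 genes were higher (0.76%) and 20 were lower (0.16%). Of these, 27 higher and 8 lower genes met both rules, and 138 genes met at least 1. The size rule favours sparse genes: 12 of its genes, 6 in each direction, had intervals that include 0, and only 9 of its higher genes and 2 of its lower genes had a mean of at least 1 cRPKM, the length-corrected level in the deposited tables. The interval rule reaches well-expressed genes, with 68 of the 95 higher genes at a mean of at least 1 cRPKM and 28 at 10 or more. Enpp3 (0.30) lay just inside the upper edge of the interval rule and Gm14226 (0.2977) just outside it, while Neurl3 (-0.30) and Crb1 (-0.2953) lay on either side of the lower edge, each value being the end of the interval nearest to 0.

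Most genes sat near 0. The median log2 ratio over all genes tested was -0.003, and the 5th and 95th percentiles were -0.257 and 0.228. The spread between the libraries was wider than counting error at high depth: among the 3423 genes with at least 10000 summed reads, the scaled median absolute deviation of the ratio was 0.052 and the median counting error was 0.022, and 45.5% of their intervals did not include 0. Below 50 summed reads the same values were 0.491 and 0.475 over 372 genes, with 5.65% of intervals off 0. An interval that merely misses 0 is for this reason not counted as a difference here.

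**Figure D1:**
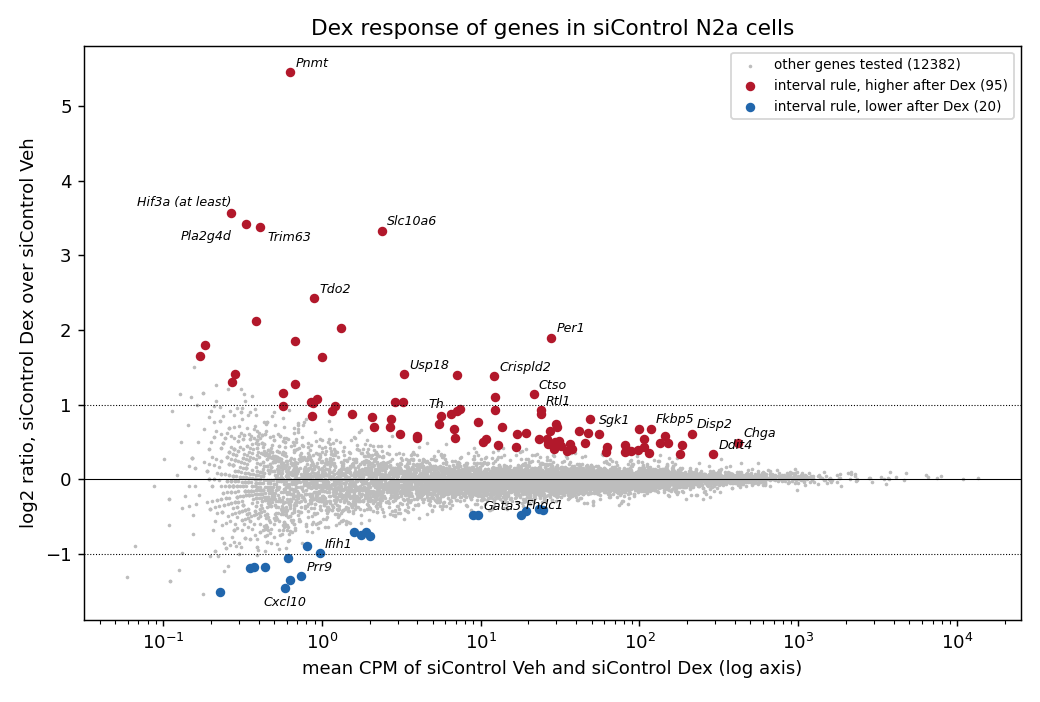
Log2 ratio of siControl Dex over siControl Veh (y axis) against the mean CPM of the 2 libraries (log x axis) for the 12497 genes tested. Each point is a gene, red for the 95 genes higher and blue for the 20 genes lower by the interval rule, and the dotted lines mark 2-fold; the scatter of the grey points widens toward low CPM, Hif3a is drawn at its lower bound, and the labelled red genes above 10 CPM lie between 0.34 and 1.90.

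The largest ratios belonged to genes that were near silent under vehicle. Pnmt, phenylethanolamine N-methyltransferase, which converts noradrenaline to adrenaline, had 1 read with vehicle and 89 with Dex, for a log2 ratio of 5.45 (interval 3.86 to 11.70). Hif3a, a hypoxia-inducible factor subunit that restrains its relatives, had 0 reads and 38 reads, which is at least 11.8-fold higher when the vehicle library is set to a floor of 3 counts. Trim63, the muscle ubiquitin ligase MuRF1, had 4 and 54 reads with a ratio of 3.38 (interval 2.22 to 5.58). The ratios of Pnmt and Trim63 depend on the prior count added to each library, which is 1 here, and with a prior count of 5 they were 3.97 and 2.68. All of these stayed at or below 1.25 CPM after Dex, so they were rare transcripts in both libraries. Pla2g4d, a cytosolic phospholipase A2, had 3 reads and 44 reads with a ratio of 3.42 (interval 2.13 to 6.11), or 2.59 with a prior count of 5. Tdo2, the tryptophan dioxygenase that opens the kynurenine route, went from 0.270 to 1.51 CPM (ratio 2.43, interval 1.76 to 3.29). The other rare transcripts among the 15 strongest rises were Fam13a (34 and 151 reads, ratio 2.02, interval 1.51 to 2.63), Asic5, an acid-sensing channel subunit (9 and 45 reads, ratio 2.11, interval 1.17 to 3.44), Lrp4, the agrin receptor of the neuromuscular junction (19 and 76 reads, ratio 1.85, interval 1.16 to 2.71), and Rufy4, an autophagy-related protein (32 and 109 reads, ratio 1.64, interval 1.09 to 2.29). Slc10a6, a sodium-dependent carrier of sulfated steroids, had more counts behind it, with 28 reads with vehicle and 310 with Dex and a ratio of 3.33 (interval 2.81 to 3.98).

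Among genes that were already expressed, the circadian repressor Per1 had the largest ratio of any gene at or above 10 CPM on average, at 780 reads with vehicle and 3116 with Dex (11.7 to 43.7 CPM), which is 3.73-fold, with a ratio of 1.90 (interval 1.78 to 2.01). Crispld2, a secreted glycan-binding protein, stood at 6.71 to 17.5 CPM with a ratio of 1.38 (interval 1.23 to 1.54). Tenc1, the focal adhesion protein tensin 2, stood at 3.91 to 10.3 CPM with a ratio of 1.40 (interval 1.19 to 1.61). The next ones are enzymes that cut proteins or protein modifiers. Ctso, the lysosomal cysteine protease cathepsin O, had 893 and 2112 reads (ratio 1.14, interval 1.03 to 1.26). Prcp, a lysosomal carboxypeptidase that cuts angiotensin peptides, had 522 and 1200 reads (ratio 1.10, interval 0.95 to 1.25). Usp18, which removes the ubiquitin-like protein ISG15 and damps interferon signalling, had 119 and 339 reads (ratio 1.40, interval 1.11 to 1.72). The remaining genes past the size rule at 1 cRPKM were Popdc2, a cAMP-binding membrane protein, with a ratio of 1.04 (interval 0.74 to 1.36), and Tmsb15b1, a thymosin whose value is uncertain because only 0.07 kb of it could be mapped uniquely.

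**Figure D2:**
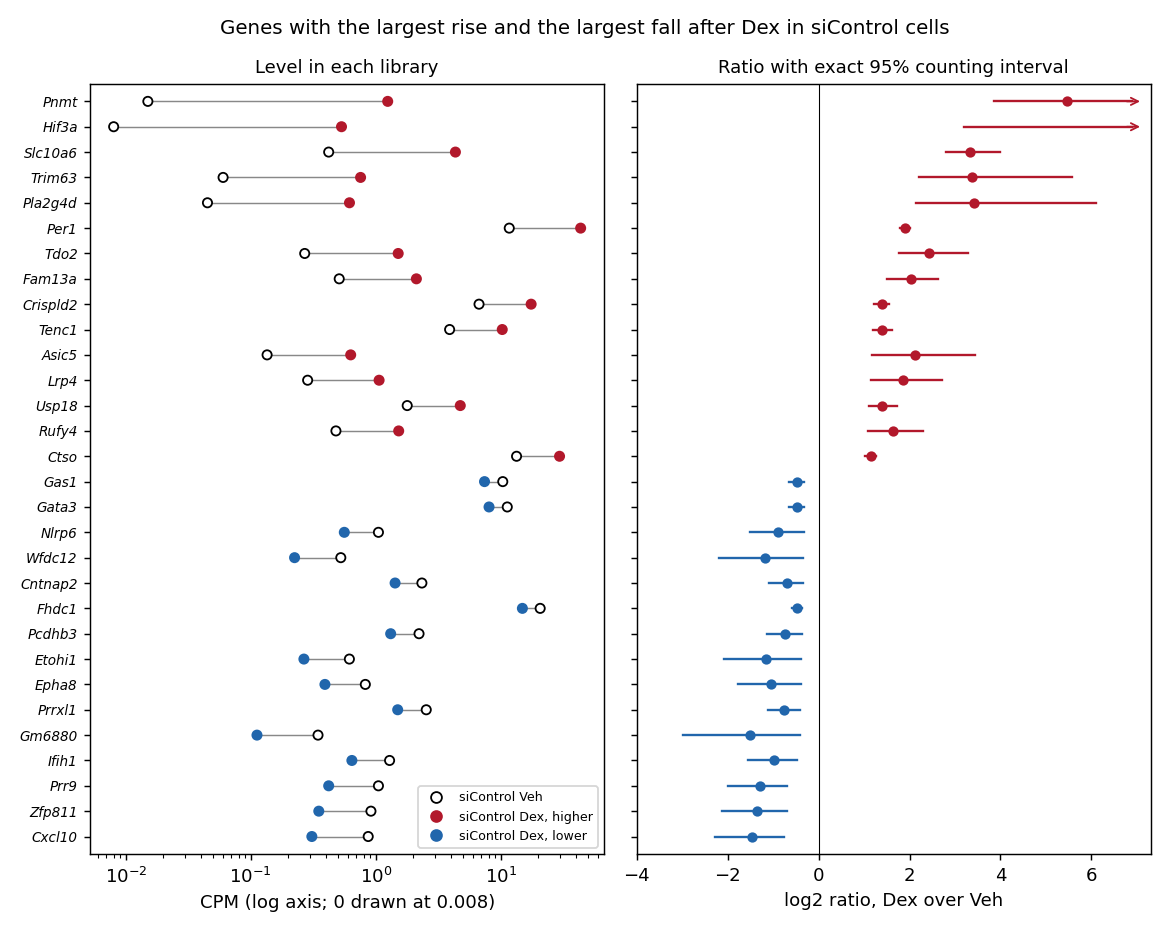
The 15 strongest rises and the 15 strongest falls, ranked by the interval end nearest to 0. Left, CPM in siControl Veh (open circles) and siControl Dex (filled circles) on a log axis, with a level of 0 drawn at the left edge; right, the log2 ratio with its exact 95% counting interval, where an arrow runs past the axis and Hif3a has no upper limit. The rises reach 5.45 for Pnmt, and the falls go down to -1.51 for Gm6880 and -1.46 for Cxcl10, from lower counts and with wide intervals.

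Promoter sequence is shown for the 4 higher genes whose proximal promoter holds the full inverted repeat of a response element. The promoters come from RefSeq (assembly GRCm38.p6), run from 250 bases before to 50 bases after a listed transcription start, and were found for 9310 of the genes tested, 75 of the higher genes and 15 of the lower genes. Capitals mark the match to the extended repeat, 13 letters long, which is ACANNNTGT with a G before and a C after it, each set off by a single N. Both the extended and the shorter repeat read the same on either strand, and each extended match is also a match of ACANNNTGT. The sequences are, 5′ to 3′ on the gene's strand, Map3k6 at chr4:133240568-133240867 (plus strand), Sgk1 at chr10:21993640-21993939 (plus strand), Slc10a6 at chr5:103629354-103629653 (minus strand) and Trim63 at chr4:134314870-134315169 (plus strand).
Map3k6: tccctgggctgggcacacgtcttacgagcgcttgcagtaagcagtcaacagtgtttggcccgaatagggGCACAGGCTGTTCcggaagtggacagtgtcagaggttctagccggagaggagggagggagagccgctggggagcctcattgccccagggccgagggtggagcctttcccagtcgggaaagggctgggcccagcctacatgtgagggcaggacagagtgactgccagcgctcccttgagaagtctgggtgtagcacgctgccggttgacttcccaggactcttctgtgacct
Sgk1: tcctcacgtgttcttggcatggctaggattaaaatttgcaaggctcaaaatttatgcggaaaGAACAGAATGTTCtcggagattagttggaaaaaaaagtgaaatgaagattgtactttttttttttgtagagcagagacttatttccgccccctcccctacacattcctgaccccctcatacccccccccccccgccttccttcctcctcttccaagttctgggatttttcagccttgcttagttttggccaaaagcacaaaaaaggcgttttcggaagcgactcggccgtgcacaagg
Slc10a6: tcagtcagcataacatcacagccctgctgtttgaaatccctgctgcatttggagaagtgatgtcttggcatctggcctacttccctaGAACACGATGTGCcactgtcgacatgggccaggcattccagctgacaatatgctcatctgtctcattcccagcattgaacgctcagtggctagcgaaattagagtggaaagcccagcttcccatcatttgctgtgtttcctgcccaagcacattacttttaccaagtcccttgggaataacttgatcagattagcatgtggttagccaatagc
Trim63: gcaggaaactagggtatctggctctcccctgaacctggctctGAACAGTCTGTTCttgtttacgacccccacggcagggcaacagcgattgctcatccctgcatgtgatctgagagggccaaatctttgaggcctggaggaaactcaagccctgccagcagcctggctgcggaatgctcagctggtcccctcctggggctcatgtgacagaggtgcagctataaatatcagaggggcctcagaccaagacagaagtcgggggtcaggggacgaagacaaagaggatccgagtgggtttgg
The match ended 168 bases before the start in Map3k6, 175 in Sgk1, 150 in Slc10a6 and 195 in Trim63. Other listed starts of Sgk1 lacked it. It was GCACAGGCTGTTC in Map3k6, GAACAGAATGTTC in Sgk1, GAACACGATGTGC in Slc10a6 and GAACAGTCTGTTC in Trim63.

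Counted over all promoters, the extended repeat lay in 35 of the 9310 genes (0.376%), in 4 of the 75 higher genes (5.33%, exact 95% interval 1.47 to 13.1), in 0 of the 15 lower genes and in 31 of the 9220 others (0.336%). The looser ACANNNTGT lay in 477 genes (5.12%) and in 9 higher genes (12%, 5.64 to 21.6), which adds Tdo2, Rims3, Pde2a, Sh3bp5 and E230001N04Rik. The single hexamer AGAACA, searched on both strands and overlapping the inverted repeat of Sgk1, Slc10a6 and Trim63, lay in 1336 genes (14.4%) and in 15 higher genes (20%, 11.6 to 30.8). Neither shorter motif was found in the 15 lower genes. These are counts of letters in a short window, and binding was not measured in these files.

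Textbook GR targets were the list with the most members past the rules. This and the other lists were drawn up with earlier results of these data known, so their counts are descriptions. Of 41 GR targets tested, 12 were higher and 0 were lower by the interval rule, against 0.76% and 0.16% of all genes. The median ratio of these targets was 0.123 beside -0.003 over all genes. Fkbp5, the co-chaperone that lowers the hormone affinity of GR, had 6024 reads with vehicle and 10307 with Dex (90.5 to 144 CPM, ratio 0.68, interval 0.63 to 0.72). Sgk1, the serum- and glucocorticoid-regulated kinase, had 5110 and 8714 reads (76.8 to 122 CPM, ratio 0.67, interval 0.62 to 0.72). Both were abundant before treatment, and the intervals of their ratios overlap. Cdkn1a, the cell cycle inhibitor p21, had 690 and 1202 reads (ratio 0.70, interval 0.56 to 0.84). Ddit4, an inhibitor of mTORC1, had the smallest ratio of the 12, at 17035 and 23101 reads (ratio 0.34, interval 0.31 to 0.37). The transcriptional repressors Bcl6 (0.83, interval 0.48 to 1.21) and Klf9 (0.56, interval 0.31 to 0.81) were also among the 12, along with Per1, Crispld2, Tdo2, Trim63, Pnmt and Hif3a.

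Other well-known targets did not pass. Tsc22d3, the GILZ protein that binds NF-kB, had 3061 and 3520 reads and a ratio of 0.10 (interval 0.03 to 0.17). Dusp1, a phosphatase of MAP kinases, had 1703 and 1650 reads and a ratio of -0.15 (interval -0.24 to -0.05). Nfkbia, the inhibitor of NF-kB, lay just under the rule at 0.33 (interval 0.27 to 0.40), and Cebpb, a bZIP factor of gluconeogenic and fat genes, stood at 0.30 (interval 0.20 to 0.40). Glul, glutamine synthetase, stood at 0.03 (interval -0.01 to 0.07), and Tat and Zbtb16, targets in liver and other tissues, had 0 reads in both libraries. The lowest ratio of the list was that of Pdgfrb, a growth factor receptor, at -0.55 from 106 and 77 reads, which did not pass.

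Among other genes of the receptor itself, 20 encoding GR, steroid handling and chaperones were tested and Fkbp5 was the only one past a rule, with a list median of 0.041. None of 32 nuclear receptor coregulators passed, and their ratios lay between -0.20 and 0.22 with a median of -0.022. Arglu1, the coactivator whose loss the series tests, had 10165 and 11825 reads and a ratio of 0.12 (interval 0.08 to 0.16). In the circadian clock list, 21 genes were tested and only Per1 passed, with a list median of 0.007. Its paralogs Per2 (0.09, interval -0.02 to 0.20) and Per3 (-0.02, interval -0.15 to 0.10) and the clock repressor Nr1d1 (0.07, interval -0.02 to 0.16) lay between the 5th and 95th percentiles of all genes.

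Genes of catecholamine synthesis and storage included 3 that were higher. Of 17 tested, Pnmt, Th and Chga passed the interval rule (0.76% of all genes). Of the 17 intervals, 7 lay above 0 and 0 below (13.5% and 13.8% of all genes), and the median ratio was 0.132. Among all genes tested with at least 10000 summed reads, 45.5% of intervals lay off 0 in either direction. Th, tyrosine hydroxylase, which makes L-DOPA in the rate-limiting step, had 303 reads with vehicle and 597 with Dex (4.55 to 8.37 CPM, ratio 0.88, interval 0.68 to 1.08). Chga, chromogranin A, the core protein of chromaffin granules, had 22957 and 34616 reads (345 to 485 CPM, ratio 0.49, interval 0.47 to 0.52). The enzymes between Th and Pnmt did not pass: Ddc, which makes dopamine, stood at 0.13 (interval -0.01 to 0.28), and Dbh, which makes noradrenaline, at 0.14 (interval -0.03 to 0.31). Chgb, another granule protein, stood at 0.22 (interval 0.20 to 0.25). Along the route to adrenaline, the first and last enzymes passed and those between them did not, with Th at 1.84-fold.

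Of the factors that define sympathetic neurons, 13 were tested. Of these, 8 had intervals below 0 and 4 above, beside 13.8% and 13.5% of all genes. The share over all genes is not a like measure for deeply read genes. At 10000 or more summed reads, 45.5% of intervals lay off 0 in either direction. The list median was -0.072. Gata3, a zinc finger factor of this lineage, was the only one of the list past the rule. It had 752 and 576 reads and a ratio of -0.48 (interval -0.64 to -0.33). The neuroblastoma marker list, which also holds Gata3, had 5 intervals above 0 and 5 below among 12 tested, with a median of 0.035. Hand2, a bHLH factor of the lineage, had 31651 and 35248 reads and did not pass (ratio 0.06, interval 0.03 to 0.08).

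The genes past the interval rule were also sorted by role after their values were seen, so the counts that follow are descriptions. Of all genes past the rule 82.6% were higher (95 of 115), and nothing about a role is read from a count near that share. Of 13 genes past the rule that were grouped as receptors and ion channels, 10 were higher and 3 lower. The inflammasome receptor Nlrp6, described below, was lower but was not placed in this group. Adra2b, an alpha-2 adrenergic receptor, had 142 and 313 reads (ratio 1.04, interval 0.75 to 1.34). Ptger4, the EP4 prostaglandin receptor, stood at 0.65 (interval 0.55 to 0.74), and Il4ra, the interleukin-4 receptor chain, at 0.68 (interval 0.49 to 0.87). Neurotransmitter receptors were among the rarer transcripts of this group, with Htr3b, a serotonin-gated channel subunit, at 23 and 56 reads (ratio 1.15, interval 0.46 to 1.95) and Drd4, a dopamine receptor, at 25 and 54 reads (ratio 0.99, interval 0.30 to 1.76). The lower members were Chrnb4, a nicotinic receptor subunit of sympathetic ganglia (-0.71, interval -1.13 to -0.32), the ephrin receptor Epha8 (-1.05, interval -1.78 to -0.39) and the potassium channel Kcnk6 (-1.19, interval -2.22 to -0.32).

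Epha8, which was lower and is itself a receptor kinase, was counted with the receptors above. The 6 other genes past the rule that were grouped as kinases and kinase regulators were each higher, by 0.44 to 0.70, in a set where 82.6% were. Besides Sgk1 and Cdkn1a they were Plk3, a stress-responsive polo-like kinase (1540 and 2674 reads, ratio 0.70, interval 0.61 to 0.79), Map3k6, an ASK-family kinase (1017 and 1674 reads, ratio 0.62, interval 0.51 to 0.73), Itpk1, an inositol phosphate kinase (0.62, interval 0.55 to 0.70), and Eef2k, which phosphorylates elongation factor 2 (0.44, interval 0.37 to 0.50). Of 15 transcription regulators past the rule, 12 were higher, among them Per1, Hif3a, Bcl6, Klf9 and the bHLH factors Atoh8 (0.52, interval 0.43 to 0.60) and Hes7 (1.03, interval 0.47 to 1.65). The 3 lower ones were Gata3, the homeodomain factor Prrxl1 (-0.75, interval -1.12 to -0.40) and the zinc finger gene Zfp811. Of 6 such proteases, 5 were higher, with Cpa4, a carboxypeptidase, at 0.93 (interval 0.79 to 1.08), Adam12 at 0.61 (interval 0.54 to 0.68) and Ermp1 at 0.38 (interval 0.33 to 0.43) beside Ctso and Prcp, and Adamts4 was lower at -0.41 (interval -0.51 to -0.31). Of 5 such secreted factors, Tgfb3 (0.95, interval 0.76 to 1.14), Fgf17 (0.85, interval 0.30 to 1.44) and Vegfc (0.60, interval 0.48 to 0.72) were higher, while Pgf, placental growth factor, was lower at -0.42 (interval -0.53 to -0.31).

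Falls were fewer, and most came from genes with few reads. Cxcl10, the interferon-induced chemokine, had 58 and 22 reads (ratio -1.46, interval -2.28 to -0.77). Zfp811, a zinc finger gene of a large family whose members share sequence, had 61 and 25 reads (ratio -1.35, interval -2.12 to -0.69). Prr9, a proline-rich protein, had 70 and 30 reads (ratio -1.29, interval -1.99 to -0.69). The genes with more reads fell by less. Fhdc1, a formin-family regulator of actin and microtubules, had 1379 and 1065 reads (20.7 to 14.9 CPM, ratio -0.47, interval -0.59 to -0.36), and Gas1, a membrane protein of growth arrest, had 692 and 530 reads (ratio -0.48, interval -0.65 to -0.32). The remaining ones of the 15 strongest falls not yet described were Pcdhb3, a clustered protocadherin (148 and 94 reads, ratio -0.75, interval -1.14 to -0.37), Wfdc12, a whey acidic protein-type protease inhibitor (35 and 16 reads, ratio -1.18, interval -2.18 to -0.34), Nlrp6, an inflammasome receptor (70 and 40 reads, ratio -0.89, interval -1.51 to -0.33), and Cntnap2, a neuronal cell adhesion protein (156 and 102 reads, ratio -0.71, interval -1.09 to -0.34). Of the 95 higher genes 41 had at least 1000 reads in siControl Veh, against 4 of the 20 lower genes. With 99% intervals, 73 higher genes and 5 lower genes (Cxcl10, Prr9, Zfp811, Fhdc1 and Ifih1) remained. Gm6880 (23 and 8 reads) and Etohi1 (41 and 19 reads) are uncertain, with 0.09 and 0.07 kb of uniquely mappable sequence.

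Interferon genes were mostly below 0 without passing, and inflammatory genes lay on both sides. In the NF-kB and AP-1 list, 20 genes were tested, 11 ratios lay above 0 and 9 below, Cxcl10 was the only one past a rule, and the median was 0.003. Of 37 interferon-stimulated genes, 28 ratios lay below 0, 10 intervals lay below 0 and 2 above, against 13.8% and 13.5% of all genes, and the median was -0.119. Usp18 was higher in that list and Ifih1, the RNA sensor MDA5, was lower, at 86 and 46 reads (ratio -0.99, interval -1.55 to -0.47). Isg15, the modifier that Usp18 removes, stood at -0.10 (interval -0.32 to 0.11), and Ifit1 at -0.41 (interval -0.87 to 0.03).

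Of the 27 gene lists, 14 held no gene past either rule. They included the 28 immediate early genes (median 0.011), 19 genes of MAPK feedback (-0.042), 31 genes of the integrated stress and unfolded protein responses (0.024), 37 SR and hnRNP splicing factors (0.005), 25 tissue-specific splicing factors (-0.028) and 28 neurite genes (0.000). Sterol and fatty acid synthesis genes had 18 of 27 intervals below 0 and a median of -0.052. Beside these counts, 13.8% of all intervals lay below 0, and 45.5% lay off 0 in either direction among genes with at least 10000 reads. Cell cycle and replication genes had 18 of 33 intervals below 0 and a median of -0.035. The 16 reference genes had a median of 0.025 with none past a rule. Of the remaining lists, FoxO and muscle atrophy genes held 3 higher of 16 (Trim63, Klf9 and Ddit4), fuel genes 2 of 23 (Tdo2 and Pla2g4d), salt and water transport genes 2 of 16 (Sgk1 and the acid-sensing channel Asic5), bile acid and organic anion carriers 1 of 8 (Slc10a6) and p53 targets 1 of 21 (Cdkn1a). Over the lists, 511 different genes were tested, of which 18 were higher and 3 lower by the interval rule.

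**Figure D3:**
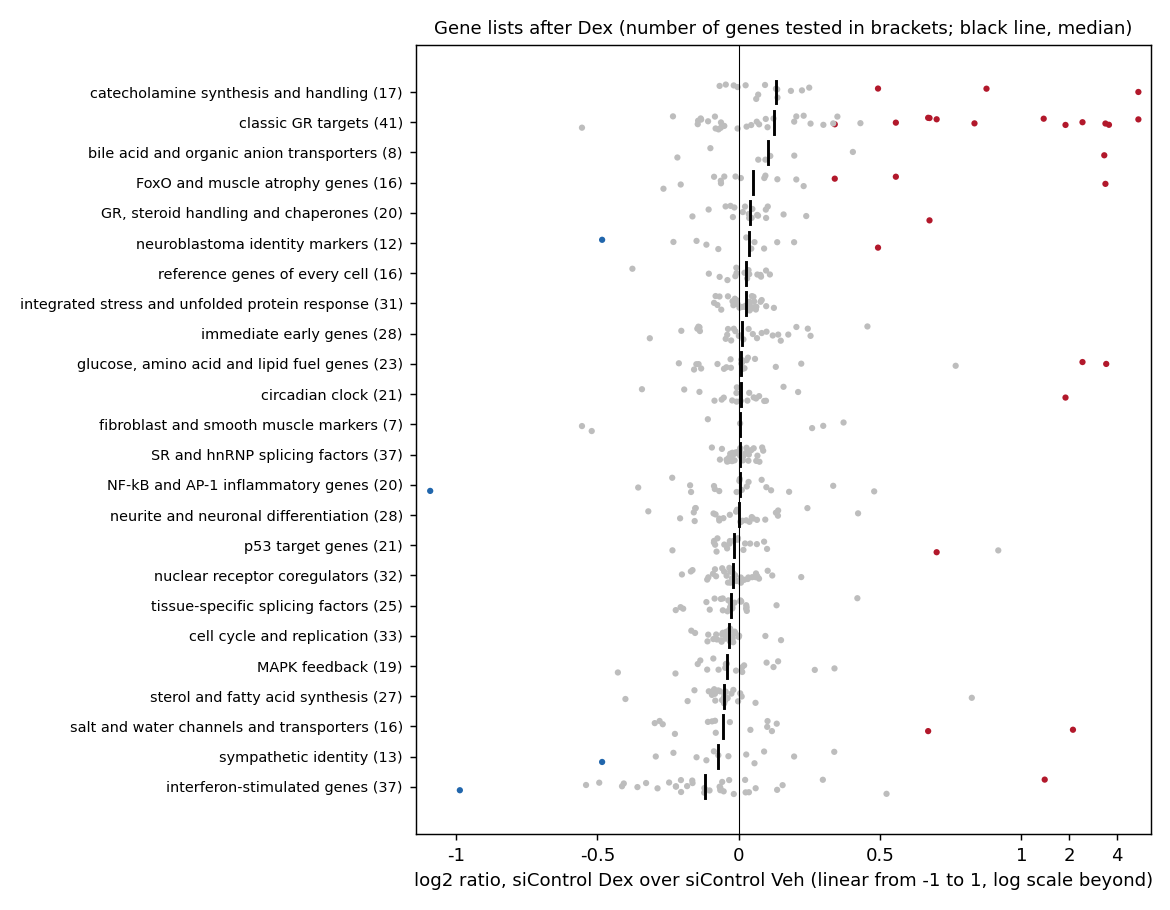
Log2 ratio of siControl Dex over siControl Veh for the members of each gene list with more than 3 genes tested, 1 point a gene, with the number tested in brackets and the list median as a black line (x axis linear from -1 to 1, logarithmic beyond). Red and blue points passed the interval rule upward and downward; catecholamine genes (median 0.132) and classic GR targets (median 0.123) are at the top and interferon-stimulated genes (median -0.119) at the bottom.

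The same treatment in siArglu1 cells gave a second pair of libraries that shares none with siControl, and its values are set beside these. Of the 95 higher genes, 91 (95.8%) had a ratio above 0 there, against 49.7% of all genes, and 87 had an interval above 0 (91.6%, against 26.2% of all genes), with 0 intervals below 0. The median ratio of the 95 was 0.70 in siControl and 0.56 in siArglu1, and 69 of them had the smaller ratio in siArglu1. The 95 were chosen for their siControl ratio, so this count is not read as a difference between the pairs. Of the 20 lower genes, 13 had a ratio below 0 (65%, against 50.3% of all genes) and 6 an interval below 0 (30%, against 26.6% of all genes), and the median went from -0.82 to -0.095. The rises were thus seen again in most genes. The share of intervals over all genes is not a like measure for the falls, most of which had few reads. In siControl 10.7% of intervals lay off 0 at 100 to 300 summed reads, against 45.5% at 10000 or more. Whether the falls recur was not tested. By the interval rule itself, 60 genes were higher in both pairs, which is 63.2% of the 95 in siControl and 19.9% of the 301 in siArglu1. The 1 gene lower in both was 5% of the 20 in each. Beside these shares, 301 of all 12497 genes tested passed this rule upward in siArglu1 and 20 passed it downward.

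Single genes ranged widely between the pairs, and these differences were not tested. Fkbp5 stood at 0.68 (interval 0.63 to 0.72) in siControl and 0.68 (interval 0.63 to 0.72) in siArglu1. Sgk1 (0.76, interval 0.72 to 0.81 in siArglu1) and Th (1.24, interval 0.95 to 1.55) were also higher in both. Per1 had the larger ratio in siArglu1, 2.53 (interval 2.36 to 2.70), where it had 330 and 2532 reads. Pla2g4d, with 8 and 433 reads, reached 5.20 (interval 4.36 to 6.57). In contrast, Slc10a6 had the smaller ratio in siArglu1, 2.29 (interval 2.03 to 2.58), from a higher vehicle level of 2.01 CPM, and Crispld2 stood at 0.77 (interval 0.57 to 0.97). Pnmt had 1 read in siArglu1 Veh and 1 read in siArglu1 Dex. Cyp17a1, the 17-hydroxylase of steroid synthesis, had 40 and 91 reads in siControl (ratio 1.07, interval 0.53 to 1.66) and a ratio of -0.08 (interval -1.11 to 0.96) in siArglu1, where Hes7 had -0.16 (interval -0.68 to 0.36). Among the falls, Cxcl10 was the one whose interval lay furthest below 0 in siArglu1, at -0.84 (interval -1.31 to -0.39), and Cntnap2 had -0.60 (interval -1.07 to -0.15) there. Zfp811 (0.47, interval -0.10 to 1.07), Ifih1 (0.33, interval -0.52 to 1.24), Fhdc1 (-0.04, interval -0.24 to 0.15) and Gata3 (-0.10, interval -0.20 to -0.01) lay near or above 0 there. In siArglu1 the ratio also tracked gene length, from a median of -0.148 in the shortest of 5 equal length classes to 0.141 in the longest, whereas in siControl these medians were 0.020 and -0.028.

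**Figure D4:**
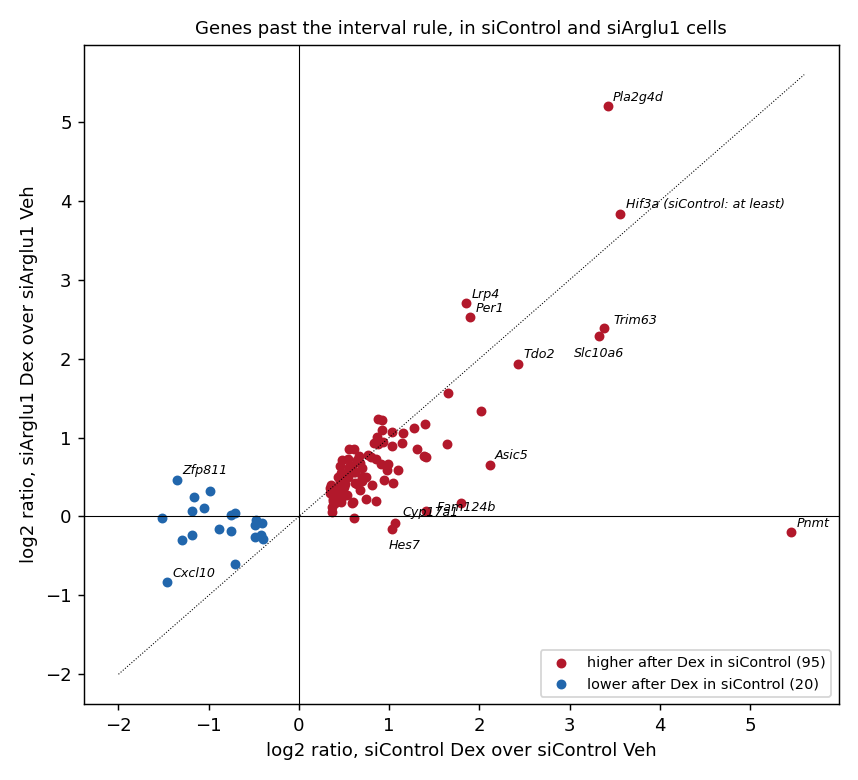
Log2 Dex over vehicle ratio in siArglu1 (y axis) against that in siControl (x axis) for the 95 genes higher (red) and 20 genes lower (blue) by the interval rule in siControl, 1 point a gene, with equality as a dotted line. Of the red points 91 lie above 0 on the y axis, with Pnmt far to the right at 5.45 and near 0 on the y axis, while 13 of the blue points lie below 0; Hif3a is drawn at its lower bound on the x axis.

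Splicing was compared by PSI (percent spliced in), the share of a gene's transcripts that carry an exon or take a given splice site. Of 57183 events compared, 411 in 367 genes differed by at least 15 PSI between siControl Dex and siControl Veh (0.719%), 198 higher and 213 lower after Dex. The share of changed events was lower at each higher coverage score, whose read ranges are given as found at the Alt3 and Alt5 sites, since no junction reads were used for exons. Where the lower of the 2 libraries had the score N or VLOW, under 20 reads, 8.47% of events passed (52 of 614). At LOW, 20 to 39 reads, it was 4.32% (193 of 4465), at OK, 40 to 99 reads, 0.952% (151 of 15862), and at SOK, 100 reads or more, 0.0414% (15 of 36242, exact 95% interval 0.0232 to 0.0683). By type, the share was 0.479% for simple cassette exons (118 of 24614), 1.15% for complex cassette exons (93 of 8061), 0.336% for microexons (1 of 298, exact interval 0.0085 to 1.86), 0.729% for alternative 3′ sites (Alt3) and 0.952% for alternative 5′ sites (Alt5). Of the 212 changed exons, 36.8% had a length that is a multiple of 3, against 40.4% of the 32973 compared.

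**Figure D5:**
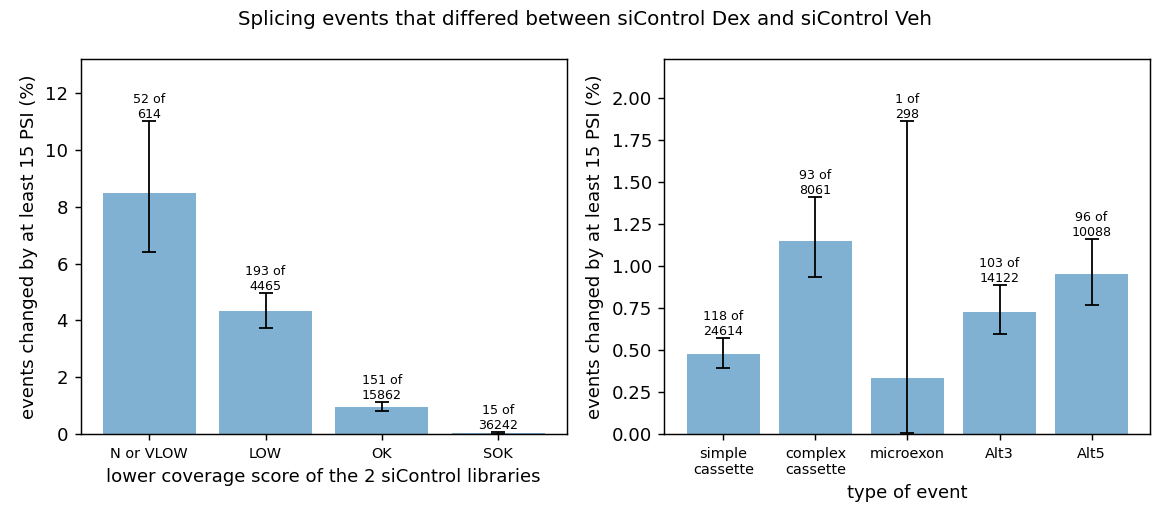
Percent of splicing events that differed by at least 15 PSI between siControl Dex and siControl Veh, by the lower coverage score of the 2 libraries (left) and by type of event (right), with exact 95% binomial intervals and the counts above each bar. The share goes from 8.47% at the lowest scores to 0.0414% at the highest, and the microexon bar rests on 1 event.

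Alt3 and Alt5 sites carry junction reads, so a counting interval can be given. Of 28802 sites compared, 523 had a difference whose 95% Newcombe interval did not include 0 (1.82%), 275 higher and 248 lower. Of the 223 sites at or beyond 15 PSI, 116 also had such an interval and 107 did not. The median number of junction reads at the 223 sites was 33 in siControl Veh and 34 in siControl Dex, against 143 and 152 over all sites. Of the 411 changed events, 194 (47.2%) moved the same way in siArglu1, beside 50.2% of the 34648 events that differed at all in both pairs. The 50.2% leaves out events without a difference in siArglu1, while the 47.2% is a share of all 411, so the shares are not a like measure. In siArglu1, 28 of the 411 passed 15 PSI in the same direction and 40 in the opposite one, beside 542 of all 57183 events compared. With LOW as the lower siControl score there were 17 of the 28 and 30 of the 40.

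The 15 events with the best score in both siControl libraries included exons of regulators, and only some of the 15 are described. Of the 15, 5 moved the same way in siArglu1. Coordinates are as deposited, on mm9, the build that the submitters' processing notes name. A 494-base exon of Ncor1, a corepressor of nuclear receptors, at chr11:62147165-62147658, was included at 79.07 PSI in siControl Veh and 54.79 PSI in siControl Dex, and at 100 and 81.82 PSI in siArglu1. An Alt5 site 4 bases from the reference site of Atp2b1, a plasma membrane calcium pump, at chr10:98453696-98453836, went from 100 to 72.29 PSI (difference -27.71, interval -35.8 to -20.5) and from 100 to 83.15 PSI in siArglu1. These were lower after Dex in both pairs. A 103-base exon of Srgap3, a Rac GTPase-activating protein of neurite outgrowth, went from 77.85 to 100 PSI, and from 94.81 to 84.65 PSI in siArglu1. A 138-base exon of Tacc2, a centrosomal protein whose gene was itself higher (0.44, interval 0.39 to 0.48), went from 72.46 to 87.86 PSI, and in siArglu1 from 100 to 89.5. Timm9, a chaperone of the mitochondrial import machinery, had 2 changed sites, an Alt5 site from 35.84 to 17.58 PSI and an Alt3 site from 57.65 to 80.25 PSI.

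At OK scores, the largest rise was an Alt3 site of Trerf1, a zinc finger regulator of steroidogenic Cyp11a1, at chr17:47490646-47490867, from 24.53 PSI over 53 junction reads to 60.42 PSI over 48 (difference 35.89, interval 16.7 to 51.7), with 23.53 and 54.9 PSI in siArglu1. Mpdz, a multi-PDZ scaffold, had a 117-base exon at chr4:81004530-81004646 go from 55.81 to 81.18 PSI, with 51.22 and 42.37 in siArglu1 from lower coverage. Brwd3, a bromodomain protein, had a 159-base exon at 60.61 and 77.36 PSI in siControl. In siArglu1 it stood at 62.96 and 44.93, also from lower coverage (scores VLOW and LOW). The direction of these last events differed between the pairs. The largest fall, from 100 to 50.15 PSI at an Alt3 site of Ptma, prothymosin alpha, is uncertain because this gene has many processed pseudogenes whose reads can be confused with its own. Counting the events with scores of OK or better in all 4 libraries, those past 15 PSI in the same direction in both pairs were Atp2b1, Atp9b, Map4k5, Ncor1, Ndufaf1 and Rg9mtd3 (6 events), and those in opposite directions were Ccbl1 and Ptma (2 events).

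Few genes differed in both level and splicing. Of 8374 genes tested that had a splicing event, 329 had a changed event (3.93%), and among the 51 genes past the interval rule that had an event 6 did (11.8%), namely Map3k6, Popdc2, Shox2, Tacc2, Tmtc1 and Tnnt2. The number is small, and only the Tacc2 exon had SOK scores in both siControl libraries. Tmtc1, an endoplasmic reticulum mannosyltransferase whose expression ratio was 0.64 (interval 0.57 to 0.72), had a 114-base exon go from 90 PSI at LOW coverage to 64.56. In the gene lists, 13 of 1999 events changed (0.65%, beside 0.719% of all events), and 2 of the 13 had OK scores or better in both siControl libraries. These were the Ncor1 exon above and one of the clock activator Arntl, which went from 69.7 to 51.43 PSI (siArglu1 70.73 to 56.52) at a 128-base exon.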

How the data were processed

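RNA from 3 cultures a group was pooled, made into poly(A) libraries and sequenced as 1 library for each of 4 groups, of which 2 are compared here. The authors deposited read counts per gene and cRPKM, an RPKM corrected for uniquely mappable length, made with Bowtie and mm9 per the submitters' processing notes, with the version of Bowtie not given in the sources read. They also deposited the percent spliced in (PSI) of each event with a coverage score and junction reads. 2 unnamed columns with the authors' own Dex over vehicle ratios were not used. The members, gene lists and motifs were chosen with earlier results of these data known.

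Genes with at least 75 reads over the 4 libraries were tested. Counts were scaled by TMM (edgeR 4.0.16, limma 3.58.1, R 4.3.3), and log2 ratios used a prior count of 1. Exact binomial 95% intervals of the ratio of counts came from scipy 1.17.1 in Python 3.11.15. With 1 library a group no test across genes was made and no p-value is given. A floor of 3 counts stood in for a count of 0. Splicing events were compared where 3 or more libraries scored LOW or above, and counted as changed at a difference of 15 PSI. Newcombe intervals were computed for Alt3 and Alt5 sites from junction reads; no interval was computed for exons. Genes were named by rule. The rules took the 15 largest rises and falls by the interval end nearest to 0 and list genes past a rule. They also took genes past the size rule at a mean of 1 cRPKM and genes the study names. Of the last, Abcg8 (0.82, interval 0.15 to 1.57), Gpat2 (0.77, interval -0.01 to 1.63) and Scnn1a (-0.27) passed no rule and are given only here. Splicing events were picked after their values were seen, mainly from the 10 largest rises and falls and the events with the best scores. Genes named to describe a list or a role were chosen after their values were seen. The scripts were tested on simulated data. Alternatives tried were DESeq2 1.42.0 size factors, cRPKM in place of counts, other read minimums, a prior count of 5, 99% intervals, removal of the trend with gene length by lowess (statsmodels 0.14.6), 25 PSI, and other coverage scores. Intervals and floors cover counting error only.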

Additional observations from a re-analysis of the deposited data

Results flagged for a closer look

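The differences of 1 gene and of 2 splicing events scored OK or better in all 4 libraries were past a threshold in 1 direction in siControl cells and in the other in siArglu1 cells. Without that limit on scores, 40 changed events were past 15 PSI in opposite directions. Each direction rests on 1 library a group, and the difference between the pairs was not tested. Prdm8, a PR-domain transcription regulator, had 14 reads with vehicle and 32 with Dex in siControl, for a ratio of 1.05 on the log2 scale (interval 0.15 to 2.11), and 35 and 22 reads in siArglu1, a ratio of -1.04 (interval -1.92 to -0.27). A simple cassette exon of Ccbl1, an enzyme of kynurenine metabolism, went from 78.08 to 62.79 PSI in siControl, a difference of -15.29, and from 64.84 to 82.54 PSI in siArglu1, a difference of 17.7. The Alt3 site of Ptma went from 100 to 50.15 PSI in siControl, a difference of -49.85, and from 59.29 to 76.61 PSI in siArglu1, a difference of 17.32. Reads of Ptma can be confused with those of its pseudogenes, and their part in this value was not tested.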

How the results depend on the processing

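No paired analysis was possible because each group has 1 library. Of 59 recomputed values, most of them counts and the others percentages or ratios of shares, 32 stayed within 1.5 times the reported one. The recomputed percentages and ratios were all among the 32, so a smaller share of the counts stayed. By the size rule, the 40 higher and 18 lower genes became 15 and 6 with ratios of cRPKM, 913 and 934 with no read minimum, 9 and 0 with at least 200 reads over the siControl libraries, and 146 and 122 at 1.5-fold, and a prior count of 5 left 8 lower genes. By the interval rule, 99% intervals left 5 of 20 lower genes. For splicing, the 198 higher and 213 lower events became 21 and 29 at 25 PSI, 2247 and 2247 with no score minimum, 85 and 81 at OK or better, 6 and 9 at SOK, and 120 and 138 without complex or unbalanced events. Sites with an interval off 0 numbered 56 higher and 60 lower when 15 PSI was also asked. The 6 genes past the interval rule with a changed event became 3 at 25 PSI, 24 with no minimum, 1 at OK or better, 1 at SOK and 2 without complex or unbalanced events. The cause of these changes was not tested beyond the settings themselves, which change the genes or events admitted. For the 46 named genes 184 ratios were recomputed, and 0 of those past the interval rule reversed sign. The interval was recomputed only with DESeq2 size factors and with the length trend removed, where 1 gene changed side. With total reads or a prior count of 5 only the sign could be checked. A prior count of 5 lowered the ratios of Pnmt to 3.97, Pla2g4d to 2.59 and Trim63 to 2.68. The gene that changed side was Ddit4, whose ratio went from 0.34 to 0.33 with the length trend removed. Its interval end nearest to 0 was 0.31 before that removal and below 0.3 after it. With 1 library a group, spread between cultures is unknown, and differences at low counts cannot be resolved at this depth.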

Other observations

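A few of the well-expressed genes that were higher after Dex are not described above, and are given here as single genes chosen after their values were seen. Disp2, a membrane protein related to the releaser of Hedgehog ligands, had 11204 and 18361 reads (ratio 0.61, interval 0.58 to 0.65). Rims3, a RIM protein of the presynaptic active zone, had 7694 and 12375 reads (ratio 0.59, interval 0.54 to 0.63). Pmp22, a myelin membrane protein, had 8361 and 12600 reads (ratio 0.49, interval 0.45 to 0.53). Of these, Rims3 was the one with an ACANNNTGT match in its promoter. Plxnc1, a semaphorin receptor, had 10526 and 14318 reads (ratio 0.34, interval 0.31 to 0.38), and Adcy6, an adenylyl cyclase, had 6702 and 9152 reads (ratio 0.35, interval 0.30 to 0.40). Slc36a1, a lysosomal amino acid and proton carrier, stood at 0.46 (interval 0.43 to 0.50).

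Others had fewer reads and larger ratios. Tns1, the focal adhesion protein tensin 1, had 1131 and 2214 reads (ratio 0.87, interval 0.77 to 0.97), beside its relative Tenc1 at 1.40 (interval 1.19 to 1.61). Tuba8, an alpha-tubulin, had 2363 and 4420 reads (ratio 0.80, interval 0.73 to 0.88), and its reads could be shared with other alpha-tubulin genes. Rtl1, an imprinted gene derived from a retrotransposon, had 1095 and 2225 reads and a ratio of 0.92 (interval 0.82 to 1.03), the largest of the 41 genes past the interval rule that had at least 1000 reads in siControl Veh.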
